A study of Mus musculus with 18 samples.

Results

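Loss of the transcription factor Dmrt5 was examined in dissected cortical tissue of the mouse by RNA sequencing. The 4 libraries titled as Dmrt5 knockout (KO, genotype Dmrt5-/-) were set against the 4 titled as wild type (WT), out of 18 libraries in the series. All came from C57BL/6 embryos at E12.5, counted in embryonic days. The other libraries, 5 of the Dmrt3-/-;Dmrt5-/- double KO and 5 of the Dmrt3-/- KO, share the same fit and give a second comparison that differs by Dmrt5 alone on a background without Dmrt3. The 8 libraries held between 19602718 and 33072896 counts. The labels name neither the alleles nor the number or sex of the embryos per library (not given in the sources used here), and p-values measure the spread between these libraries, which may be partly technical.

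Dmrt5, whose current gene symbol is Dmrta2, belongs to the doublesex and mab-3 related family of DNA-binding proteins and is made in progenitors of the dorsal telencephalon, at higher levels medially. The dorsal telencephalon, or pallium, forms the cortex. At its medial edge the cortical hem secretes Wnt and Bmp proteins that pattern the adjoining hippocampus, and beside the hem lies the choroid plexus, whose multiciliated epithelium makes cerebrospinal fluid. The ventral telencephalon, or subpallium, holds the ganglionic eminences, the birthplace of GABAergic neurons.

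Dmrta2 (ENSMUSG00000047143, mm10 chromosome 4, 109978053 to 109983687) was read first. Its normalised read count, as CPM (counts scaled to an equal library size), was 25.1, 4.31, 6.94 and 6.57 in Dmrt5 KO replicates 1, 2, 4 and 5, against 159, 220.3, 216 and 178 in WT replicates 1 to 4, and this order of libraries is kept for all values below. Every Dmrt5 KO library lay below every WT library, and replicate 1 held the most Dmrta2 of the 4 Dmrt5 KO libraries. The fitted difference was -4.18 ± 0.47 on the log2 scale (± is the standard error, SE, of log2 fold changes throughout), 18.2-fold lower in Dmrt5 KO (edgeR quasi-likelihood test, adjusted p = 0.000177). Its relatives Dmrt3, Dmrta1 and Dmrt1 were not called (log2 -0.45, 0.39 and -0.35, adjusted p 0.629, 0.495 and 0.549). Dmrtb1, another relative, was higher in each Dmrt5 KO library than in any WT library, at 17.6 to 41.2 CPM in Dmrt5 KO, against 8.74 to 17.4 CPM in WT, but was not called (log2 1.20 ± 0.42, adjusted p = 0.253).

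A pair of the 8 libraries held transcripts of both sexes. Xist, made from the inactive X chromosome of females, and a sum of Y-linked transcripts stood at 25.4 and 106 CPM in Dmrt5 KO replicate 1, and at 441 and 13.0 CPM in WT replicate 2. In the other 6 libraries one of the 2 values was at least 139.9 CPM and the other at most 1.49 CPM. Counts of calls are therefore given with and without this pair, which removes the library with the most Dmrta2 in Dmrt5 KO. Without the pair the Dmrta2 difference was -4.93 on the log2 scale.

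The tissue matched its label in part. Emx1, a homeobox gene of the dorsal telencephalon, was between 59.2 and 106 CPM in Dmrt5 KO and between 113 and 180.01 CPM in WT, but transcripts of the subpallium were present in WT too: Dlx2 was at least 149 CPM and Nkx2-1, a factor of the medial ganglionic eminence, at least 36.7 CPM in each WT library.

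Across 16236 tested genes, 167 passed an adjusted p under 0.05 (1.03%) and are called changed below. Of these, 55 were higher in Dmrt5 KO (0.339% of the tested genes) and 112 lower (0.69%). The genes that fell were mostly transcripts of low level with large differences, and those that rose were transcripts of higher level with smaller differences. By mean log2 CPM over all 18 libraries, the median level was 3.23 CPM for called genes that fell and 28.9 CPM for those that rose. Their median log2 fold changes in Dmrt5 KO against WT were -1.64 and 0.88. The Dmrt5 KO and WT libraries did not overlap in 55 of the 55 called genes that rose and 102 of the 112 that fell, while over all tested genes they did not overlap for 4.39% in the upward and 4.34% in the downward direction. The called genes were chosen with these same libraries, a choice that favours separate groups and similar values within a group. Over the called genes that fell, the median log2 ratio to the WT mean was -1.59, -1.63, -1.42 and -1.62 in Dmrt5 KO replicates 1, 2, 4 and 5. Over those that rose it was 0.84, 0.94, 0.77 and 0.94.

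**Figure D1:**
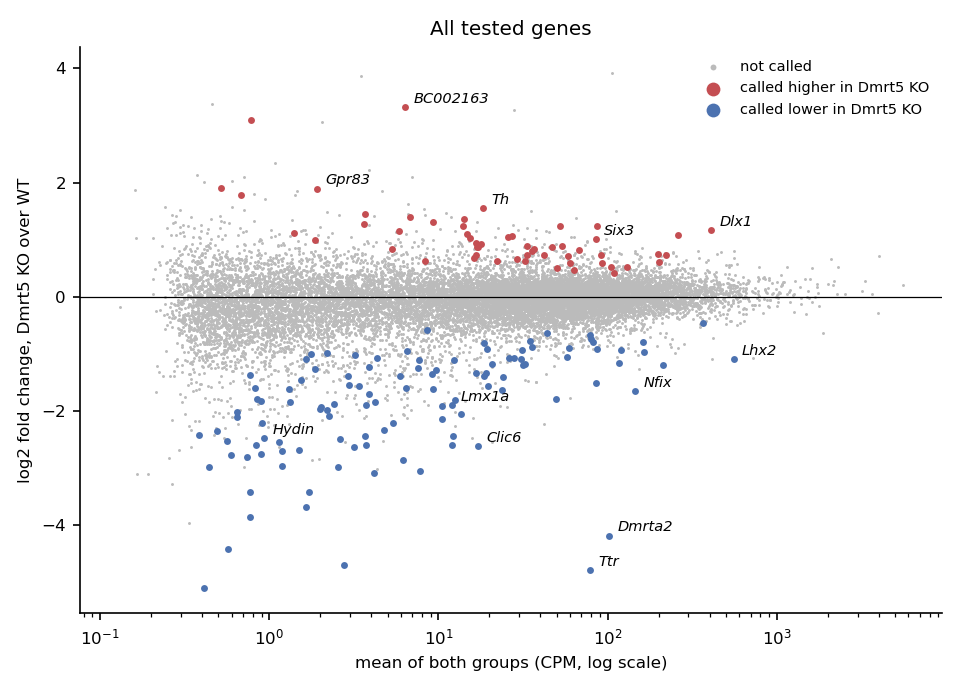
Each point is 1 tested gene, with its mean level over both groups in CPM on a log axis and its log2 fold change in Dmrt5 KO over WT; red and blue mark called genes. The 112 called falls reach further than the 55 called rises and lie mostly at lower levels.

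The number of calls depended on single libraries. Without 1 library at a time, between 14 and 55 genes were called higher and between 40 and 170 lower. Of the 55 genes that rose, 11 kept their call in all 8 of these fits, as did 38 of the 112 that fell, and the sign of all 167 stayed the same. The lowest counts came without Dmrt5 KO replicate 2 (14 higher and 40 lower), and the most falls without WT replicate 2 (170). With both libraries of mixed sex left out, 27 genes were called higher and 104 lower, of which 22 and 83 were among the 55 and 112. In a fit of the 8 libraries alone, 24 of the 55 and 46 of the 112 kept their call.

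WT replicate 2 stood closest to the Dmrt5 KO libraries for genes that fell: it had the lowest value of the 4 WT libraries in 75 of the 112. It also held the most erythroid transcript, 16977 CPM summed over 14 genes, against 3138 to 9512 CPM in the other WT libraries and 3711 to 8366 CPM in Dmrt5 KO. For intermediate progenitors and glutamatergic neurons its summed level was 1449 CPM. The sums were 2157 to 2584 CPM in the other WT libraries and 1882 to 2286 CPM in Dmrt5 KO. The slope on gene length (log2 CPM on log2 exon length, relative to the mean over libraries) was -0.196 in WT replicate 2. It was 0.096, -0.063 and 0.243 in WT replicates 1, 3 and 4, and -0.085 to 0.004 in Dmrt5 KO. The parts of tissue composition and length slope in the values of WT replicate 2 were not tested.

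The surroundings of Dmrta2 were examined because a targeted allele can affect its neighbours. Within 5 Mb of the gene 4 of 68 tested genes were called (5.88%, against 1.03% over all genes). That share includes the targeted gene Dmrta2, whose fall follows from the knockout. Apart from Dmrta2 there were 3 calls, among them Tceanc2 and Dmrta2os, of which Dmrta2os was chosen after its values were seen. Tceanc2 (chromosome 4, 107134155 to 107179116), a gene related to transcription elongation factors, had 15.5, 12.1, 11 and 12.6 CPM in Dmrt5 KO, against 30.7, 30.5, 29 and 24.9 CPM in WT (log2 -1.17 ± 0.13, edgeR adjusted p = 0.000177). In the double KO against Dmrt3 KO, which differ by the same targeted gene, Tceanc2 had a log2 fold change of -1.26 (adjusted p = 3.12e-06). It lies on the same chromosome as the targeted allele, and an effect of Dmrt5 loss cannot be told apart from an effect of sequence linked to the allele.

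Dmrta2os (chromosome 4, 109976738 to 109977813), a non-coding gene on the opposite strand just before Dmrta2, moved the other way. It had 21.9, 15.8, 20.3 and 22.1 CPM in Dmrt5 KO, against 11.2, 15, 13.2 and 10.9 CPM in WT (log2 0.67 ± 0.16, edgeR adjusted p = 0.0497). The groups were separate, with Dmrt5 KO replicate 2 the nearest to WT. Dmrta2os kept its call only without WT replicate 2 among fits without 1 library (adjusted p up to 0.199). The stretch around the starts of both genes is printed because 1 rose and the other fell. It is the RefSeq promoter window of Dmrta2 (GRCm38.p6, plus strand, 250 bases before and 50 after a transcription start, the transcribed 50 in capitals), and its first 39 bases lie in Dmrta2os in the GENCODE annotation, where 239 bases part the 2 genes.
chr4:109977775-109978074: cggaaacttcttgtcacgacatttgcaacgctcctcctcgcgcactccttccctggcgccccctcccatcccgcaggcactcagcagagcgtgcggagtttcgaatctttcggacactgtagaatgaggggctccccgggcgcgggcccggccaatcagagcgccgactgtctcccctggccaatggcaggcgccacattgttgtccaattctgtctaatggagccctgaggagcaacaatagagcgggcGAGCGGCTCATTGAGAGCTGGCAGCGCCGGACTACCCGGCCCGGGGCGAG
The window holds no copy of GATACATT, 1 part of the site bound by factors of this family, on either strand (AATGTATC on the other). Other parts and forms of that site were not searched, so this says only that these letters are not in this window. Of called genes with a RefSeq window, 0 of 40 that rose and 0 of 79 that fell hold GATACATT, against 38 of 11757 tested genes with a window (0.323%). At so low a share, sets of 40 and 79 genes would mostly hold none, so these counts cannot show a difference from all tested genes.

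Of the gene lists examined, choroid plexus had the lowest median log2 fold change, -1.79, against -0.02 over all tested genes. Of its 15 tested members 7 fell and none rose. Here and for every list below, 0.69% of all tested genes were called lower and 0.339% higher. Ttr, which encodes the thyroxine carrier transthyretin, stood at 5.39, 0.912, 5.5 and 10.1 CPM in Dmrt5 KO, against 235, 50.1, 202 and 123 CPM in WT. Kcne2 (chromosome 16, 92292389 to 92298129), a potassium channel subunit of the choroid epithelium, had 0.0989, 0.332, 0.0797 and 0.27 CPM in Dmrt5 KO, against 10.2, 0.427, 6.09 and 4.54 CPM in WT. In both genes the groups did not overlap, but the gap between Dmrt5 KO and WT was narrow for Kcne2, where WT replicate 2 lay just above the highest Dmrt5 KO library. The log2 fold changes were -4.79 ± 0.85 for Ttr (edgeR adjusted p = 0.00934) and -4.70 ± 0.83 for Kcne2 (adjusted p = 0.00896).

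Clic6, a chloride channel protein, was at 3.26, 1.95, 7.85 and 6.03 CPM in Dmrt5 KO, against 42.2, 15.1, 25.2 and 34.9 CPM in WT (log2 -2.62 ± 0.49, edgeR adjusted p = 0.0124). Values of Clic6 in WT replicate 2 were again the lowest of the WT group yet above all of Dmrt5 KO. Clic6 was not called without Dmrt5 KO replicates 1 or 2 (adjusted p up to 0.0615). Slc4a5, a sodium bicarbonate cotransporter of the choroid plexus, fell by 2.96 on the log2 scale, and was not called without Dmrt5 KO replicate 5 (adjusted p = 0.0538). The serotonin receptor gene Htr2c (log2 -3.68) overlapped between the groups, because WT replicate 2 held 0.107 CPM, inside the Dmrt5 KO range of 0.0989 to 0.48 CPM. Htr2c kept its call only without Dmrt5 KO replicate 5 or WT replicates 2 or 3 among fits without 1 library (adjusted p up to 0.112).

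Sulf1, an enzyme that trims heparan sulphate, and the folate receptor gene Folr1 also fell (log2 -1.79 and -1.70). Sulf1 kept its call only without Dmrt5 KO replicate 4 or WT replicates 2 or 3 among fits without 1 library (adjusted p up to 0.0974). Folr1 was not called without any 1 of the 8 libraries (adjusted p 0.0524 to 0.174). Over fits without single libraries between 3 and 7 choroid plexus genes were called, all lower, and 6 were called without the mixed pair. A fit of the 8 libraries alone called 1 of 13 tested members, also lower, with a median log2 fold change of -1.69. The summed level of all 18 genes of the list, tested or not, was 325 to 912 CPM in Dmrt5 KO, against 766 to 1035 CPM in WT. The overlap came from Dmrt5 KO replicate 4. That library also held the most mesenchyme transcript of the Dmrt5 KO group (3000 CPM over 23 genes, against 1306 to 1473 CPM in the other Dmrt5 KO libraries and 1629 to 3873 CPM in WT), and the part of mesenchyme in the sum was not tested. In whole tissue, fewer cells of a type and less RNA per cell cannot be told apart, here and in all results that follow.

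Multiciliated cells carry tufts of motile cilia, and their programme starts with geminin-related coactivators, proceeds through centriole amplification and ends with axoneme assembly. Of 24 tested genes of this programme 7 fell and none rose, 23 had values below 0, and the median log2 fold change was -1.09. The falls included genes of each step. At the top, Gmnc, which encodes geminin coiled-coil protein, had 1.83, 1.12, 2.23 and 0.78 CPM in Dmrt5 KO, against 7.25, 10.03, 7.66 and 18.2 CPM in WT (log2 -2.86 ± 0.57, edgeR adjusted p = 0.0184). Mcidas (chromosome 13, 112993845 to 113000394), the multicilin gene that acts after Gmnc, had 1.73, 0.788, 1.87 and 1.92 CPM in Dmrt5 KO, against 9.98, 5.34, 6.64 and 10.04 CPM in WT. Neither gene overlapped between the groups, and Dmrt5 KO replicate 2 was below the other Dmrt5 KO libraries for Mcidas. The Mcidas difference was -2.34 ± 0.41 on the log2 scale (edgeR adjusted p = 0.00852) and kept its call in all 8 fits without 1 library. Gmnc was not called without Dmrt5 KO replicates 1, 2 or 5 or WT replicate 4 (adjusted p up to 0.0968).

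For centriole amplification, Ccno, the cyclin O gene, had 4.99, 2.94, 4.11 and 3.57 CPM in Dmrt5 KO, against 13.9, 20.1, 20.4 and 14.4 CPM in WT (log2 -2.14 ± 0.40, edgeR adjusted p = 0.0124). Deup1, which builds the deuterosome where new centrioles form, fell by 2.48 on the log2 scale. Both genes were lower in 4 of 4 Dmrt5 KO libraries than in any WT library. Ccno was not called without Dmrt5 KO replicates 2 or 5 (adjusted p up to 0.0668), and Deup1 kept its call only without Dmrt5 KO replicate 4 or WT replicates 2 or 3 among fits without 1 library (adjusted p up to 0.0818). Foxj1 (chromosome 11, 116330704 to 116335399), the regulator that switches on axoneme genes, had 24.1, 14.7, 19.2 and 21.9 CPM in Dmrt5 KO, against 48.7, 35.8, 55 and 40.5 CPM in WT. The groups were separate, with a log2 fold change of -1.17 ± 0.22 (edgeR adjusted p = 0.0121). Foxj1 was not called without Dmrt5 KO replicate 2 (adjusted p = 0.0613).

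Among parts of the axoneme, Hydin, of the central pair of microtubules, had 0.297, 0.249, 0.319 and 0.27 CPM in Dmrt5 KO, against 2.22, 0.694, 1.78 and 1.62 CPM in WT (log2 -2.47 ± 0.37, edgeR adjusted p = 0.00366). Rsph4a, a radial spoke head protein, had 0.396, 0.332, 0.239 and 0.3 CPM in Dmrt5 KO, against 2.32, 0.907, 1.9 and 3.13 CPM in WT (log2 -2.71 ± 0.42, adjusted p = 0.00377). Both were low transcripts, separate between the groups, with calls that held in all 8 fits without 1 library. Other members were not called, among them Ccdc39, Ccdc40, Rfx3 and Dnah5 with log2 values of -0.30, 0.05, -0.09 and -0.11. Without single libraries between 3 and 10 members were called, all lower, and 6 without the mixed pair.

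The axoneme genes can also be counted by symbol, over all tested Cfap, Dnah, Rsph and Drc genes, a grouping chosen after the values were seen. Of these 45 genes 6 fell and none rose (13.3%, against 1.03% over all genes), 36 were below 0, and their median log2 fold change was -0.52. Besides Rsph4a the falls were Cfap52, Cfap54, Cfap65, Dnah6 and Drc7 (log2 -2.55, -1.09, -2.98, -3.87 and -2.52). Cfap54 kept its call only without WT replicate 2 among fits without 1 library (adjusted p up to 0.19), as did Drc7 (up to 0.169), and Cfap65 was not called without Dmrt5 KO replicate 2 (adjusted p = 0.059). Cfap52 had 0.198, 0.58, 0.239 and 0.3 CPM in Dmrt5 KO, against 2.62, 0.587, 1.95 and 2.6 CPM in WT. Here WT replicate 2 barely exceeded Dmrt5 KO replicate 2, whereas the other WT libraries were clearly higher.

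**Figure D2:**
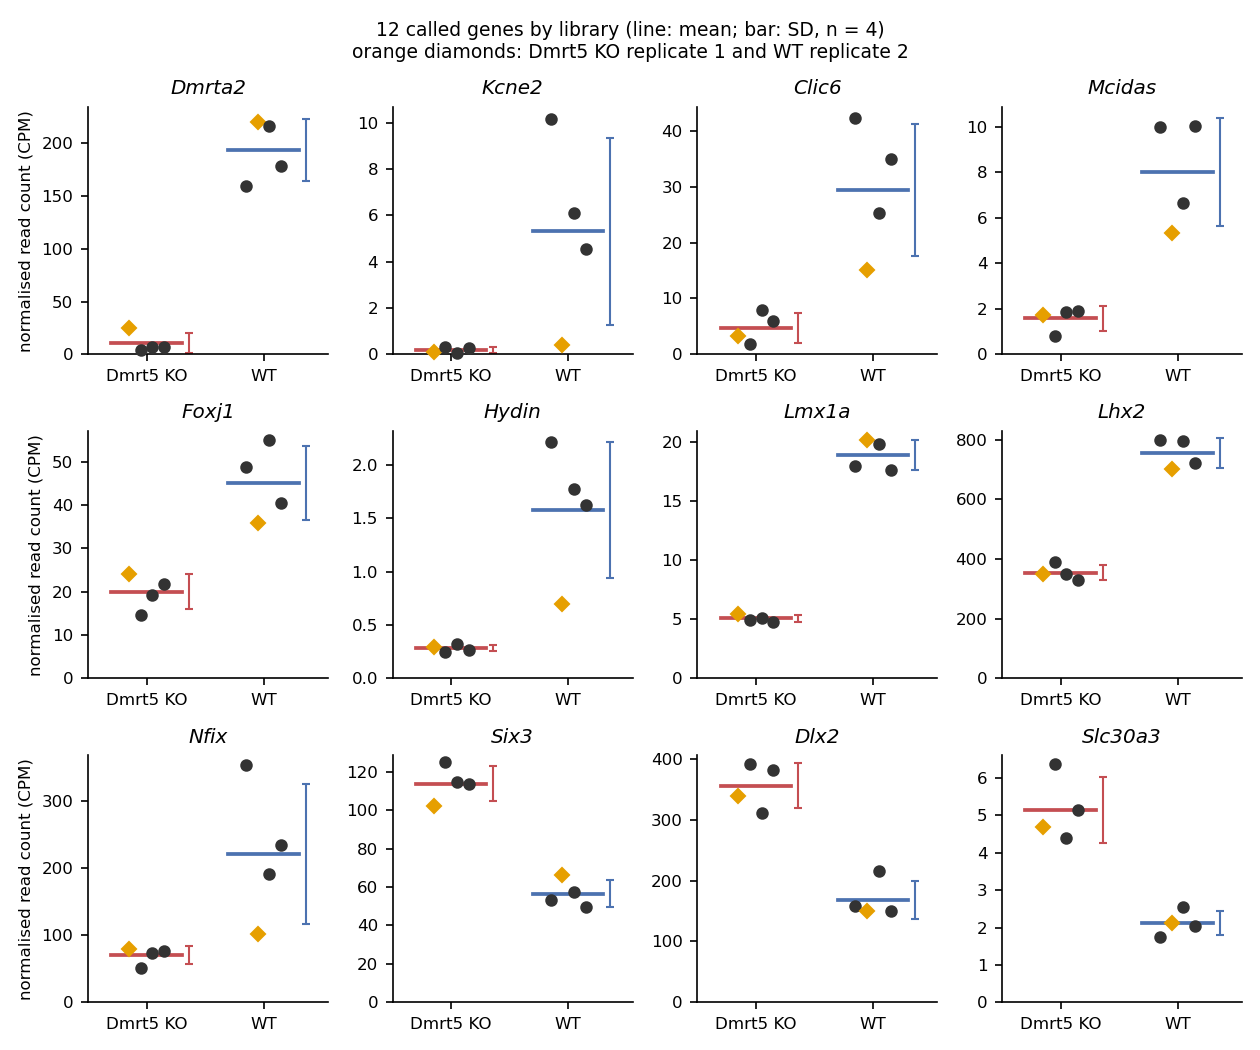
Each panel shows the normalised read count in CPM of 1 called gene, with Dmrt5 KO libraries on the left and WT libraries on the right of each panel; lines are means and bars SD of 4 libraries. Orange diamonds are the libraries with transcripts of both sexes, and WT replicate 2 is the lowest WT library for Kcne2, Clic6, Mcidas, Foxj1, Hydin, Lhx2 and Nfix but not for Dmrta2, Lmx1a or Six3.

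The cortical hem and its signals were next. Of 18 hem factors 2 fell, 16 had values below 0, and the median log2 fold change was -0.99. Other fits changed this count. DESeq2, the replicate block and the slope on gene length as a covariate each called 1 member higher and 5 lower. The fit without WT replicate 2 called 1 higher and 2 lower, and sex as a covariate gave 6 lower and none higher. Lmx1a (chromosome 1, 167689237 to 167848741), a LIM homeodomain factor of the hem and choroid plexus, was the steadiest, with 5.44, 4.93, 5.14 and 4.8 CPM in Dmrt5 KO, against 18, 20.2, 19.8 and 17.7 CPM in WT. Its values varied little within each group, and the groups were far apart (log2 -1.90 ± 0.24, edgeR adjusted p = 0.001). Wnt2b, a Wnt ligand of the hem, was called as well, at 0.544, 0.456, 1.43 and 1.02 CPM in Dmrt5 KO, against 10.2, 1.81, 4.49 and 13.2 CPM in WT (log2 -3.09 ± 0.66, adjusted p = 0.03). The 4 WT libraries of Wnt2b varied widely, and the gene kept its call only without WT replicates 2 or 3 among fits without 1 library (adjusted p up to 0.135).

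Other hem genes were lower in every Dmrt5 KO library than in any WT library without passing the test. Wnt3a, the ligand needed for hippocampal growth, had 4.2, 1.95, 5.46 and 3.09 CPM in Dmrt5 KO, against 12.53, 16.2, 14.4 and 11.6 CPM in WT (log2 -1.90 ± 0.50, edgeR adjusted p = 0.0901). The R-spondin genes Rspo1 and Rspo2, which raise Wnt receptor levels, had log2 fold changes of -1.78 and -1.09 (adjusted p 0.0533 and 0.0803). Wnt8b, a further hem ligand, overlapped between the groups (-0.73, adjusted p = 0.391).

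Of 13 Wnt ligands, 2 fell, Wnt2b and Wnt10a. Wnt10a was a low transcript, with 0.148, 0.29, 0.438 and 0.06 CPM in Dmrt5 KO, against 0.94, 1.76, 2.03 and 0.984 CPM in WT (log2 -2.60 ± 0.50), and it was not called without Dmrt5 KO replicates 1, 2 or 5 or WT replicate 3 (adjusted p up to 0.0697). Of 22 receptors and modulators 1 fell: Fzd9 (chromosome 5, 135248938 to 135251230), a Frizzled receptor expressed in the hippocampal primordium, had 17.6, 13.6, 17.5 and 18.3 CPM in Dmrt5 KO, against 39.9, 27.3, 39.95 and 33.6 CPM in WT. The groups were separate and the call (log2 -1.07 ± 0.17, edgeR adjusted p = 0.00382) held without each library in turn. Of 15 Wnt target genes 2 fell, 13 were below 0, and the median was -0.68. Sp5, a zinc finger gene switched on by Wnt signals, had 5.59, 3.03, 6.97 and 6.81 CPM in Dmrt5 KO, against 14.5, 24.3, 22 and 17.6 CPM in WT (log2 -1.80 ± 0.38, adjusted p = 0.0265). The receptor gene Tnfrsf19 fell by 1.17 on the log2 scale. Sp5 kept its call only without WT replicates 1 or 2 among fits without 1 library (adjusted p up to 0.117), and Tnfrsf19 kept its call only without WT replicate 2 among fits without 1 library (adjusted p up to 0.192). Axin2, a feedback inhibitor read as a general sign of Wnt signalling, had a value of -0.90 and was not called (adjusted p = 0.197).

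In the Bmp pathway 2 of 21 members fell, with 18 below 0 and a median of -0.46. None of the 21 was called in a fit of the 8 libraries alone. Id4, a Bmp-responsive inhibitor of bHLH factors that is abundant in cortical progenitors, had 294, 339.7, 295 and 304 CPM in Dmrt5 KO, against 402, 444, 439.9 and 413 CPM in WT. Its difference was small, -0.46 ± 0.10 on the log2 scale (edgeR adjusted p = 0.033), and it was not called without any 1 of the 8 libraries (adjusted p 0.0562 to 0.124). Smad9, a signal transducer of Bmp receptors, fell by 2.75 on the log2 scale at levels of 0.09 to 0.518 CPM in Dmrt5 KO, against 1.07 to 2.78 CPM in WT, where WT replicate 4 was far above the others. Smad9 kept its call only without Dmrt5 KO replicate 4 or WT replicate 2 among fits without 1 library (adjusted p up to 0.169). The ligand genes Bmp4, Bmp6 and Bmp7 were not called (log2 -0.63, -1.16 and -0.75, adjusted p 0.812, 0.395 and 0.455).

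**Figure D3:**
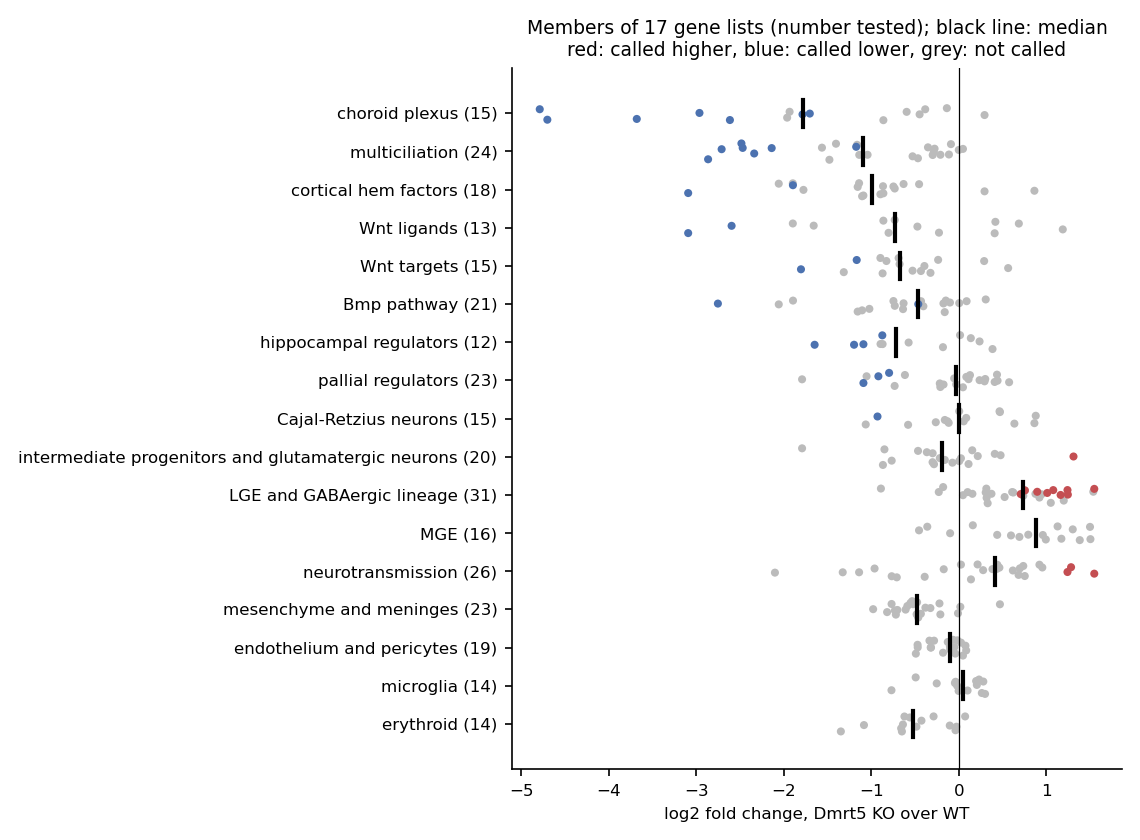
Each point is 1 tested member of a gene list, placed by its log2 fold change in Dmrt5 KO over WT; blue members were called lower, red ones higher, and black lines are list medians. Medians run from -1.79 for choroid plexus to 0.88 for the medial ganglionic eminence (MGE), and no member of the 4 lists at the bottom, for other tissues, was called.

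Of 23 tested regulators of the pallium 3 fell and none rose, and the median log2 fold change, -0.03, was close to that of all genes. Lhx2 (chromosome 2, 38339281 to 38369733), a LIM homeodomain selector of cortical identity, had 349, 389, 349.5 and 330.1 CPM in Dmrt5 KO, against 800, 702, 795 and 722 CPM in WT (log2 -1.09 ± 0.12, edgeR adjusted p = 0.000177). All Dmrt5 KO libraries were near the same value, and all WT libraries were higher. Fezf2, a zinc finger gene of forebrain progenitors and deep-layer neurons, had 72, 56.3, 53.5 and 57.4 CPM in Dmrt5 KO, against 122, 114, 119 and 97.9 CPM in WT (log2 -0.92 ± 0.13, adjusted p = 0.00364). Both calls held without each library in turn. Emx2, a homeobox gene graded from medial to lateral cortex, had 133, 112, 119.6 and 109 CPM in Dmrt5 KO, against 188, 249, 224 and 161 CPM in WT (log2 -0.80 ± 0.18, adjusted p = 0.0404). Emx2 kept its call only without WT replicate 4 among fits without 1 library (adjusted p up to 0.154). Its antisense neighbour Emx2os, chosen after its values were seen, fell as well (log2 -0.81, adjusted p = 0.0166) and was not called without Dmrt5 KO replicates 2, 4 or 5 (adjusted p up to 0.071), but the libraries do not mark strand, so reads of the pair cannot be fully separated.

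Emx1, the sister gene of Emx2, was lower in each Dmrt5 KO library but was not called (log2 -1.05 ± 0.26, edgeR adjusted p = 0.0603), except without Dmrt5 KO replicate 1 (adjusted p = 0.0419). The proneural genes Neurog2 and Neurog1 had values of -0.22 and 0.11 (adjusted p 0.673 and 0.894). The neurogenic factor Pax6 was higher in each Dmrt5 KO library than in WT without being called (log2 0.57 ± 0.16, adjusted p = 0.111).

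Among 12 regulators of the hippocampus 4 fell, and the median was -0.72. Besides Lhx2 they were 2 nuclear factor I genes and Lmo2. A fit of the 8 libraries alone called 1 of the 12, lower. Nfix (chromosome 8, 84699876 to 84800344), a nuclear factor I gene that acts in hippocampal and glial development, had 80.01, 51.2, 72.7 and 77 CPM in Dmrt5 KO, against 353, 102, 191 and 234 CPM in WT. The WT libraries differed by more than 3-fold among themselves, with WT replicate 2 nearest to the Dmrt5 KO range. The call (log2 -1.65 ± 0.26, edgeR adjusted p = 0.00448) held without each library in turn. Nfib had 156, 121, 112 and 129 CPM in Dmrt5 KO, against 379, 166, 290.2 and 352 CPM in WT (log2 -1.20 ± 0.26, adjusted p = 0.0326), and it kept its call only without WT replicate 2 among fits without 1 library (adjusted p up to 0.127). Nfia was lower in each Dmrt5 KO library without being called (log2 -0.89, adjusted p = 0.0592), except without WT replicate 2 (adjusted p = 0.0136). The LIM-domain gene Lmo2 fell by 0.87 on the log2 scale and kept its call only without WT replicates 1 or 4 among fits without 1 library (adjusted p up to 0.112). Prox1, Zbtb20 and Ephb1 were not called (log2 0.38, 0.01 and 0.14).

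Most genes of cortical neurons were not called. Of 15 markers of Cajal-Retzius neurons, the early Reln-making cells that arise in part from the hem, 1 fell: Trp73, the p53 relative made by hem-derived cells, had 20.1, 20.1, 22.2 and 23.3 CPM in Dmrt5 KO, against 50.3, 28, 34.4 and 50.6 CPM in WT (log2 -0.93 ± 0.20, edgeR adjusted p = 0.0266). Trp73 kept its call only without WT replicates 2 or 3 among fits without 1 library (adjusted p up to 0.113). None of the 15 markers was called in a fit of the 8 libraries alone. Reln, which is made by all Cajal-Retzius cells, was not called (-0.58, adjusted p = 0.419). Of 20 genes of intermediate progenitors and glutamatergic neurons 1 rose and none fell. The riser was Neurod4, a proneural bHLH gene, with 12.6, 12.1, 14.2 and 14.1 CPM in Dmrt5 KO, against 4.5, 6.4, 4.44 and 6.08 CPM in WT (log2 1.30 ± 0.27, adjusted p = 0.0226). Neurod4 kept its call only without WT replicate 2 among fits without 1 library (adjusted p up to 0.0992). Eomes, Tbr1 and Slc17a7 had values of -0.28, -0.16 and -0.77 (adjusted p 0.576, 0.812 and 0.158), and Slc17a7 was called lower without WT replicate 2 (adjusted p = 0.0184).

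Of 31 tested genes of the lateral ganglionic eminence (LGE) and of GABAergic neurons 9 rose and none fell, beside 0.339% of all tested genes called higher. Of the 31, 28 had values above 0, and the median log2 fold change was 0.74. Among progenitor regulators, Dlx2 (chromosome 2, 71543408 to 71546754), a homeobox gene that specifies GABAergic neurons, had 339, 391, 311 and 382 CPM in Dmrt5 KO, against 159, 151, 215 and 149 CPM in WT. The groups did not overlap, and WT replicate 3 was the highest WT library. The log2 fold change of Dlx2 was 1.08 ± 0.18 (edgeR adjusted p = 0.0078), and it kept its call without each library in turn.

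Dlx1, the neighbour of Dlx2, had 605, 542, 473 and 651 CPM in Dmrt5 KO, against 274, 199, 335 and 208 CPM in WT (log2 1.16 ± 0.25, edgeR adjusted p = 0.0265), and Dlx5 rose by 1.25 on the log2 scale. Dlx1 kept its call only without Dmrt5 KO replicate 4 or WT replicate 3 among fits without 1 library (adjusted p up to 0.105), and Dlx5 kept its call only without Dmrt5 KO replicate 4 or WT replicates 2 or 3 among fits without 1 library (adjusted p up to 0.151). Upstream of the Dlx genes, Gsx2, the homeobox selector of the LGE, was higher in each Dmrt5 KO library without being called (log2 0.87 ± 0.23, adjusted p = 0.082), except without WT replicate 3 (adjusted p = 0.045).

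Six3 (chromosome 17, 85613608 to 85629302), a homeobox gene of the LGE and rostral forebrain, had 102, 125, 115 and 114 CPM in Dmrt5 KO, against 53.1, 66, 57.5 and 49.5 CPM in WT. The groups were far apart, and Six3 had the lowest adjusted p of the called rises (log2 1.01 ± 0.13, edgeR adjusted p = 0.000862). Its overlapping antisense gene Six3os1, also chosen after its values were seen, rose too (log2 0.73), with the same limit of libraries that do not mark strand, and was not called without any 1 of the 8 libraries (adjusted p 0.0596 to 0.175). Isl1, of striatal projection neurons, and Meis1 rose by 0.90 and 0.71 on the log2 scale. Isl1 was not called without any 1 of the 8 libraries (adjusted p 0.0637 to 0.169). Meis1 kept its call only without Dmrt5 KO replicate 1 or WT replicates 1 or 2 among fits without 1 library (adjusted p up to 0.0835).

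Among genes of transmitter handling 3 of 26 rose, none fell, and the median was 0.41; Slc32a1 and Th are also among the 31 genes above. Slc32a1, the vesicular GABA transporter, had 79.9, 74.8, 59.5 and 81.2 CPM in Dmrt5 KO, against 32.1, 29, 38.2 and 25.7 CPM in WT (log2 1.24 ± 0.24, edgeR adjusted p = 0.0138). Th, tyrosine hydroxylase, the first enzyme of dopamine synthesis, had 27.9, 35.7, 21.7 and 24 CPM in Dmrt5 KO, against 6.05, 14, 12.1 and 5.41 CPM in WT (log2 1.55 ± 0.28, adjusted p = 0.0109). The vesicular zinc transporter gene Slc30a3 had 4.7, 6.38, 4.38 and 5.13 CPM in Dmrt5 KO, against 1.75, 2.13, 2.54 and 2.05 CPM in WT (log2 1.28 ± 0.21, adjusted p = 0.0058). All 3 were separate between the groups. Slc30a3 kept its call without each library in turn, Slc32a1 was not called without Dmrt5 KO replicates 2 or 5 or WT replicate 4 (adjusted p up to 0.0592), and Th was not called without Dmrt5 KO replicate 2 (adjusted p = 0.056). Gad1 and Gad2, which make GABA, were higher in each Dmrt5 KO library but were not called (0.92 and 0.75, adjusted p 0.133 and 0.288).

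The LGE count ran from 2 to 8 in fits without 1 library and was 4 without the mixed pair, with none lower in any of them. In the list for the medial ganglionic eminence none of 16 genes was called, although 13 had values above 0 and the median was 0.88. That count depended on the fit: 1 was called higher without WT replicate 2 or 3, 1 with sex as a covariate and 2 in a fit of the 8 libraries alone. It was 5 with the replicate block, 5 with the slope on gene length as a covariate and 6 by DESeq2, with none lower in these fits. Nkx2-1, its selector, had 187, 165, 126 and 184 CPM in Dmrt5 KO, against 57.9, 60.1, 78.8 and 36.7 CPM in WT (log2 1.50 ± 0.46, edgeR adjusted p = 0.171). The summed level of the 31 LGE genes was 2990 to 3473 CPM in Dmrt5 KO, against 1739 to 2241 CPM in WT. That of all 17 genes of the MGE list, tested or not, was 657 to 831 CPM in Dmrt5 KO, against 365 to 520 CPM in WT. Both sums were higher in each Dmrt5 KO library, and the share of subpallial tissue in a dissection cannot be told apart from a change within the cells.

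Beyond these lists, called rises included secretory and membrane proteins. Ptprn2, a protein of dense-core vesicles, had 84, 85.9, 82.3 and 91.8 CPM in Dmrt5 KO, against 49.1, 49.4, 49.7 and 46.5 CPM in WT, with little spread in either group (log2 0.82 ± 0.12, edgeR adjusted p = 0.00366). Slc10a4, a transporter found on synaptic vesicles, rose by 1.24 and Gjd2, the gap junction protein connexin 36, by 0.92 on the log2 scale (adjusted p 0.00365 and 0.0105). Smoc1, a secreted matrix protein, had 47.4, 49.96, 46.9 and 44.3 CPM in Dmrt5 KO, against 22.1, 34.4, 27.3 and 22.2 CPM in WT (log2 0.83 ± 0.13, adjusted p = 0.00366). Gpr83, a G protein-coupled receptor of low level, had 3.21, 3.32, 2.47 and 3.03 CPM in Dmrt5 KO, against 1.11, 0.907, 0.381 and 0.81 CPM in WT (log2 1.90 ± 0.31, adjusted p = 0.00602). Each of these genes was separate between the groups, and Ptprn2, Slc10a4, Gjd2, Smoc1 and Gpr83 kept their calls without each library in turn. Rapsn, whose product rapsyn gathers acetylcholine receptors at synapses, had 6.08, 6.22, 4.62 and 4.56 CPM in Dmrt5 KO, against 1.41, 3.26, 1.74 and 1.5 CPM in WT (log2 1.45 ± 0.29, edgeR adjusted p = 0.0177), but its value in the double KO against Dmrt3 KO was 0.04 (adjusted p = 0.941). Rapsn kept its call only without Dmrt5 KO replicates 4 or 5 or WT replicate 2 among fits without 1 library (adjusted p up to 0.0834). Helt, a bHLH factor of GABAergic progenitors in the midbrain, rose 2.64-fold and kept its call only without WT replicate 2 among fits without 1 library (adjusted p up to 0.169). The largest rise, of BC002163 (log2 3.32), kept its call without each library in turn. BC002163 is a pseudogene, and whether it drew reads from its source gene was not tested, so its rise is uncertain.

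Called falls outside the lists named so far were led by Fam184b, with the lowest adjusted p of all tested genes. Fam184b (chromosome 5, 45529705 to 45639614) had 1.58, 1.82, 2.27 and 1.89 CPM in Dmrt5 KO, against 11, 6.03, 7.83 and 10.4 CPM in WT (log2 -2.22 ± 0.20, edgeR adjusted p = 4.71e-05). Dct (chromosome 14, 118012790 to 118052244), dopachrome tautomerase of melanin synthesis and also a transcript of forebrain progenitors, had 2.27, 1.7, 1.47 and 1.32 CPM in Dmrt5 KO, against 17.6, 12.8, 13.7 and 11.8 CPM in WT (log2 -3.05 ± 0.29, adjusted p = 5.15e-05). Its companions on the list of eye and pigment genes were not called: Mitf and Pmel had log2 values of -1.17 and 0.76 (adjusted p 0.0612 and 0.658), and Mitf was called without WT replicate 2 (adjusted p = 0.0427). Lama5, a laminin chain of basement membranes, had 10.6, 10.2, 10.2 and 10.5 CPM in Dmrt5 KO, against 29.9, 17.5, 26.1 and 34.6 CPM in WT (log2 -1.38 ± 0.20, adjusted p = 0.00358). Its Dmrt5 KO values were almost equal, while the WT values spread over 17.5 to 34.6 CPM.

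Rbm20, a splicing regulator, had 3.16, 1.7, 3.95 and 4.77 CPM in Dmrt5 KO, against 30.1, 7.85, 18.1 and 25.9 CPM in WT (log2 -2.59 ± 0.42, edgeR adjusted p = 0.00566). Fam129a and Stac, which encodes an adaptor protein, fell by 2.63 and 2.44 as log2 fold changes (adjusted p 0.00358 and 0.00146). Slc16a10, a transporter of aromatic amino acids, fell as well (log2 -1.11, adjusted p = 0.0037). All of these were separate between the groups and kept their calls without each library in turn. Over all 272 tested solute carrier genes 8 fell and 3 rose (4.04% called, against 1.03% over all genes), a count made after the values were seen.

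Single members were called in several other lists, beside 1.03% of all tested genes called in either direction. Hey1, a Notch target, had 59.3, 59.4, 62.6 and 62.4 CPM in Dmrt5 KO, against 103, 92.5, 101 and 91.8 CPM in WT (log2 -0.67 ± 0.11, edgeR adjusted p = 0.00733), the only one of 19 Notch genes. Flrt3, a cell surface ligand in axon guidance, fell (log2 -1.06, adjusted p = 0.00566), the only one of 19 in its list of Slit, Robo and netrin genes. Both kept their calls without each library in turn. The guidance and adhesion genes Efnb3, Sema6c and Cdh22 rose by 0.61, 0.73 and 0.80 on the log2 scale, out of 21, 26 and 25 tested in their lists. Efnb3 kept its call only without WT replicate 1 among fits without 1 library (adjusted p up to 0.144), while Sema6c was not called without any 1 of the 8 libraries (adjusted p 0.0681 to 0.171) and Cdh22 likewise (adjusted p 0.0607 to 0.17). The immediate early gene Dusp1 (log2 0.49) was not called without any 1 of the 8 libraries (adjusted p 0.0725 to 0.167).

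No member was called in the lists for the antihem, the hedgehog, Fgf and retinoid pathways, p53 targets, septum and diencephalon. Without WT replicate 2, 1 gene each of the antihem, Fgf and septum lists was called higher and 1 of the hedgehog list lower. DESeq2 called 1 hedgehog gene higher and 2 lower, 2 septum genes higher, and 1 gene higher in each of the antihem, Fgf, retinoid and diencephalon lists. With the slope on gene length as a covariate, 3 antihem genes were called higher, as were 3 Fgf genes, with 2 Fgf and 2 hedgehog genes lower. The same fit called 1 septum and 1 diencephalon gene higher and 1 p53 target lower. The replicate block called 2 septum genes, 1 retinoid gene and 1 hedgehog gene higher and 2 hedgehog genes lower. With sex as a covariate 1 Fgf gene was called higher and 2 hedgehog genes lower. The 8 libraries alone gave 1 septum gene higher and 1 hedgehog gene lower. None of 23 genes of S phase or 25 of G2 and M phase was called either, with medians of -0.12 and -0.11. Among markers of other tissues, none of 23 mesenchyme, 19 endothelium, 14 microglia, 14 erythroid or 15 surface epithelium genes was called. With the slope on gene length as a covariate 2 surface epithelium genes were called lower. In the main fit, mesenchyme had 21 of 23 values below 0 (median -0.48), erythroid 13 of 14 (median -0.52), endothelium 15 of 19 (median -0.10) and surface epithelium 10 of 15 (median -0.68). The mesenchyme sum was 1306 to 3000 CPM in Dmrt5 KO, against 1629 to 3873 CPM in WT, so the groups overlapped. The erythroid median was 0.01 without WT replicate 2, and the mesenchyme median was -1.02 without Dmrt5 KO replicate 4. The surface epithelium median was -1.37 without Dmrt5 KO replicate 4, -0.26 without Dmrt5 KO replicate 5 and -0.02 without the mixed pair.

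The second comparison set the double KO against the Dmrt3 KO (5 libraries each). Its 10 libraries give none of the means compared between Dmrt5 KO and WT, but they are in the same fit and helped to set the spread behind those calls. There 600 of the 16236 genes were called (3.7%), 282 higher (1.74%) and 318 lower (1.96%). Of the 55 genes that rose in Dmrt5 KO, 53 had the same sign and 40 were called higher there. These 40 are 72.7% of the Dmrt5 KO rises and 14.2% of the rises in the double KO. Of the 112 that fell, 107 had the same sign and 77 were called lower, 68.8% and 24.2% of the 2 lists. The 2 groups of 5 libraries did not overlap for 35 of the 55 and 81 of the 112, against 2.29% upward and 2.51% downward over all tested genes. None was called in the opposite direction. Over all tested genes 50.7% were higher and 49.3% lower by fitted value in the double KO. Double KO replicate 5 had the largest slope on gene length of the 18 libraries, 0.326. Its summed glutamatergic list was 2291 CPM, against 956 to 1630 CPM in the other double KO libraries. In double KO replicate 4 the choroid plexus sum was 1119 CPM (others 128 to 239) and the mesenchyme sum 3743 CPM (others 818 to 1164). No fit left out either library, and their part in these calls was not tested.

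**Figure D4:**
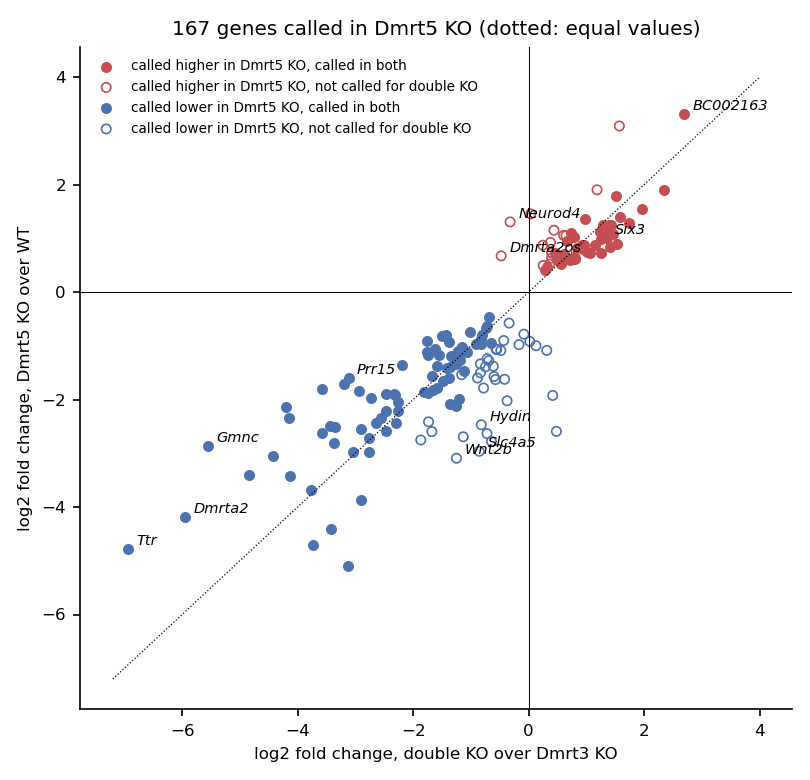
Each point is 1 of the 167 genes called in Dmrt5 KO against WT, with its log2 fold change in the double KO over Dmrt3 KO on the horizontal axis and in Dmrt5 KO over WT on the vertical axis; filled points were called in both comparisons, which share no library. Of the points, 160 lie in the quadrants of equal sign.

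Members differed in how they recurred. Six3, Dlx2 and Slc32a1 had log2 fold changes of 1.35, 1.45 and 1.30 in the double KO (edgeR adjusted p 1.39e-06, 3.58e-05 and 0.00118), beside 1.01, 1.08 and 1.24 in Dmrt5 KO. Lhx2 and Lmx1a had -1.23 and -2.47, beside -1.09 and -1.90. Fam184b, of the lowest adjusted p, had -2.26 in the double KO and -2.22 in Dmrt5 KO. Of the 7 ciliation genes 6 were called again, from Foxj1 (-1.74) to Gmnc (-5.55), while Hydin had -0.82 (adjusted p = 0.219). Of the 7 choroid plexus genes 6 were called again, and Slc4a5 was not (-0.86, adjusted p = 0.378). Neither were Fam129a (-0.72, adjusted p = 0.286), Lama5 (-0.61, 0.0684) and Wnt2b (-1.25, 0.272).

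Whether the effect of Dmrt5 loss depended on Dmrt3 was tested by the interaction, the double KO over Dmrt3 KO difference minus the Dmrt5 KO over WT difference. It was called for 23 genes (0.142%), all with negative values. Only 2 of them, Prr15 and Dmrta2os, were among the 167 genes called in Dmrt5 KO. Prr15 had 5.49, 3.94, 4.42 and 4.56 CPM in Dmrt5 KO, against 16, 10.7, 16.5 and 12.8 CPM in WT (log2 -1.61 ± 0.17, edgeR adjusted p = 0.000173), and its log2 fold change in the double KO was -3.12 (interaction -1.51, adjusted p = 0.00554). Dmrta2os had -0.48 in the double KO (interaction -1.15, adjusted p = 0.0307).

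The interaction was called for 9 of the 20 genes of intermediate progenitors and glutamatergic neurons, a list with 1 gene higher and none lower in Dmrt5 KO and 13 lower in the double KO. In Dmrt5 KO the fit without WT replicate 2 called 1 member higher and 2 lower, with a median of -0.29 in place of -0.19. The interaction was not fitted with single libraries left out, so its dependence on WT replicate 2 was not tested. Neurog2, the proneural gene of pallial progenitors, had log2 fold changes of -2.27 in the double KO and -0.22 in Dmrt5 KO (interaction -2.05, edgeR adjusted p = 0.000328). Eomes, of intermediate progenitors, had -2.16 in the double KO and -0.28 in Dmrt5 KO (interaction -1.87, adjusted p = 0.00107). Emx1, from the pallial list, had -4.31 in the double KO and -1.05 in Dmrt5 KO (interaction -3.26, adjusted p = 0.000328). For the 31 LGE genes the interaction was called for none, with medians of 1.06 in the double KO and 0.74 in Dmrt5 KO.

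**Figure D5:**
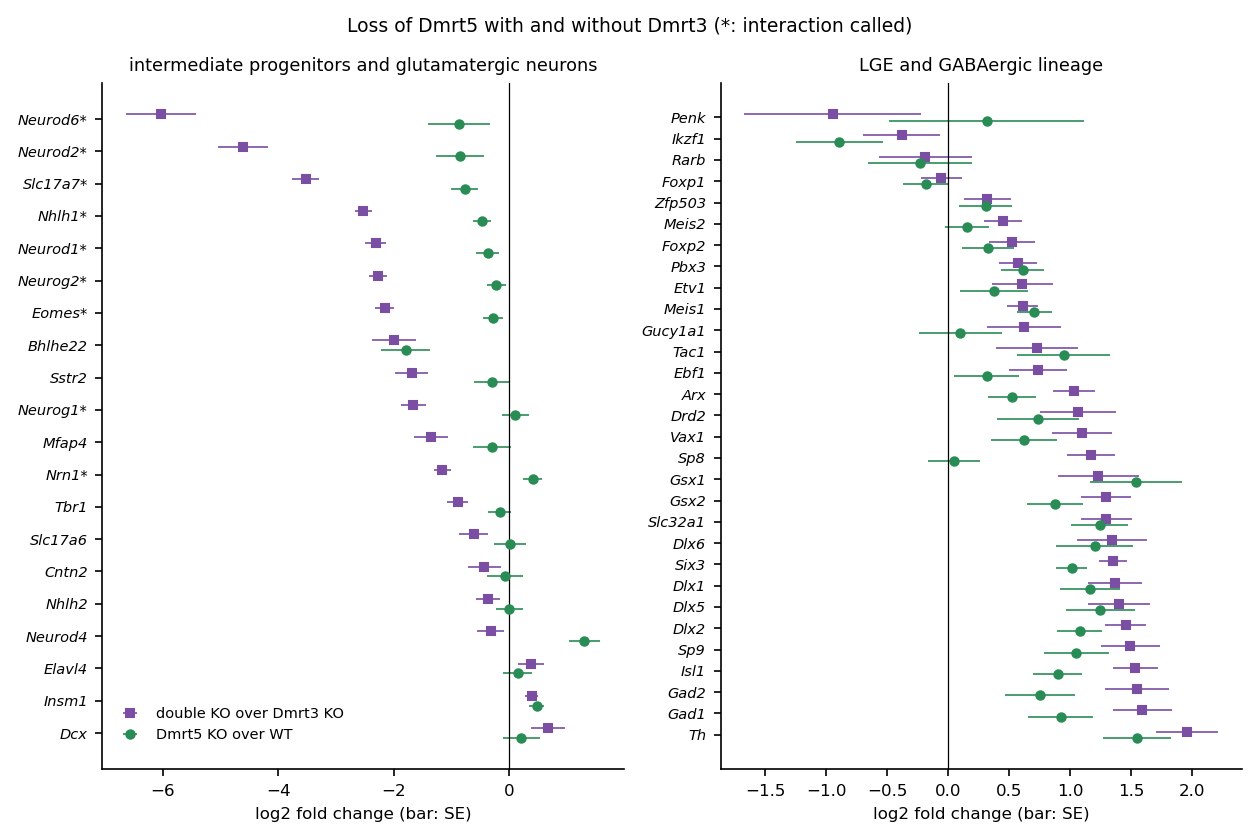
Log2 fold changes with SE are shown for the tested members of 2 lists (all but 1 in the LGE list), for the double KO over Dmrt3 KO (squares) and for Dmrt5 KO over WT (circles); asterisks mark genes whose interaction was called. The squares of the 9 marked genes lie left of their circles, and no LGE gene has an asterisk.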

How the data were processed

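The authors deposited 1 table of whole-number read counts per gene for 18 polyadenylated RNA libraries, which were not marked for strand per the labels' protocols. Per the submitters' processing notes, reads went through CASAVA 1.8.2, bcl2fastq and FastQC 0.10.1, were mapped to mm10 with STAR 2.3.0e and were handled with featureCounts 1.4.6-p1 and DESeq2 1.8.2. Its 38355 genes were matched to GENCODE M21 for 36602, and 5 summary entries at 0 were dropped. Genes that filterByExpr kept were scaled by TMM and fitted over all 18 libraries with 1 mean per genotype by the edgeR 4.0.16 quasi-likelihood test (R 4.3.3), with Benjamini-Hochberg adjustment over all 16236 genes and calls at an adjusted p under 0.05. Values are CPM from effective library sizes. Whether replicate numbers pair the libraries was not settled, and no 2 libraries were duplicates within sampling noise.

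The genes and lists were chosen with earlier results of these data known. Named genes are the Dmrt genes, the 15 calls per direction of lowest adjusted p, up to 10 of largest fold change above a mean log2 CPM of 1, from each list its called members or otherwise up to 4 of lowest p, up to 5 interaction genes per direction, and tissue markers. Others, chosen after their values were seen, are Bmp4, Ccdc39, Ccdc40, Cfap52, Cfap54, Cfap65, Dmrta2os, Dnah5, Dnah6, Drc7, Emx2os, Ephb1, Gad2, Neurog1, Nfia, Prox1, Reln, Rfx3, Six3os1, Wnt8b and Zbtb20. The fits were tested on simulated data. Alternatives were another scaling, DESeq2 1.42.0, no filter on low counts, the 8 libraries alone, sex or the slope on gene length as covariates, a replicate block and single libraries left out. Results of some genes are not reported here.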

Additional observations from a re-analysis of the deposited data

Results flagged for a closer look

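Among 140 gene and group combinations, 7 held 1 library far from the other 3, and chance gives about 1 in 20. In the Dmrt5 KO group, Dmrta2 was 25.07 CPM in replicate 1 and 4.31 to 6.94 CPM in the others. BC002163 was 7.65 CPM in Dmrt5 KO replicate 5 and 12.8 to 13.1 CPM in the others. Dmrt5 KO replicate 2 was the low library for Mcidas (0.788 CPM, others 1.73 to 1.92 CPM), Fzd9 (13.6 CPM, others 17.5 to 18.3 CPM) and Folr1 (0.829 CPM, others 2.04 to 2.27 CPM). In the WT group, Dlx2 was 215 CPM in replicate 3 and 149 to 159 CPM in the others, and Smad9 was 2.78 CPM in replicate 4 and 1.07 to 1.28 CPM in the others. The fall of Prr15 differed between backgrounds, with an interaction of -1.51 on the log2 scale (edgeR adjusted p = 0.00554), larger in the double KO against Dmrt3 KO than in Dmrt5 KO against WT.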

How the results depend on the processing

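Counts of calls moved with the method, while the sign of every called gene stayed the same wherever it was tested. DESeq2 called 210 genes higher and 228 lower in Dmrt5 KO, 505 higher in the double KO, 257 shared and 127 in the interaction, in place of 55, 112, 282, 117 and 23. With the slope on gene length as a covariate there were 223 higher and 321 lower, 495 lower in the double KO in place of 318, and 299 shared. Without a filter on low counts 31 genes were called higher, with sex as a covariate 97, and with only Dmrt5 KO and WT libraries in the fit 52 lower. Leaving out 1 library gave 14 to 55 higher and 40 to 170 lower, and leaving out both libraries of mixed sex, chosen after seeing the data, gave 27 higher. The cause of these shifts was not tested. The share of calls that were higher was 32.9%, and 47.9% with DESeq2, 41.0% with the length slope and 48.4% with the replicate block.

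Libraries of the same number had correlations of deviations of -0.34, 0.27 and 0.45 for replicates 1, 2 and 4. With libraries of other numbers they were -0.55 to 0.48, -0.34 to 0.40 and -0.45 to 0.10. Replicates 1 and 2 lay inside their ranges and replicate 4 above its range. So few values cannot settle whether the numbers pair the libraries. The replicate block gave 184 higher and 196 lower, of which 47 and 102 were among the 55 and 112, and 179 shared.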

Other observations

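Called genes that belong to none of the gene lists, chosen here after their values were seen, included Wdr63, Ccdc146, Dnajb13 and Cdc20b. Wdr63, a dynein intermediate chain, had 0, 0, 0.0797 and 0.09 CPM in Dmrt5 KO, against 1.38, 0.0534, 1.23 and 1.71 CPM in WT (log2 -4.42 ± 0.84, edgeR adjusted p = 0.0139), and was not called without Dmrt5 KO replicates 1 or 2 (adjusted p up to 0.0668). Ccdc146 and Dnajb13, a radial spoke protein, fell with log2 fold changes of -2.98 and -2.21 (adjusted p 0.00566 and 0.0279). Ccdc146 kept its call without each library in turn, and Dnajb13 kept its call only without WT replicate 2 among fits without 1 library (adjusted p up to 0.129). Cdc20b, which lies beside Mcidas and Ccno in the genome, had 0.0989, 0.0415, 0.558 and 0.42 CPM in Dmrt5 KO, against 3.33, 0.267, 3.26 and 5.7 CPM in WT (log2 -3.43 ± 0.74, adjusted p = 0.0316), and kept its call only without Dmrt5 KO replicate 4 or WT replicate 2 among fits without 1 library (adjusted p up to 0.123). For both Wdr63 and Cdc20b the value in WT replicate 2 lay inside the Dmrt5 KO range, while the other WT libraries were above it. In the double KO against Dmrt3 KO these 4 genes, in the same order, had log2 values of -3.42, -3.04, -2.47 and -4.14.

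A pair of further falls outside the lists, also chosen after their values were seen, were Car12 and Slc6a15. Car12, a membrane-bound carbonic anhydrase, had 0.742, 0.746, 1.12 and 0.93 CPM in Dmrt5 KO, against 5.21, 1.87, 2.79 and 4.2 CPM in WT (log2 -1.99 ± 0.33, edgeR adjusted p = 0.00661). Slc6a15, a neutral amino acid transporter, had 10.9, 11.7, 12.6 and 11.2 CPM in Dmrt5 KO, against 49, 17.3, 29.3 and 47.6 CPM in WT (log2 -1.63 ± 0.25, adjusted p = 0.00377). Both calls held without each library in turn. Among rises, Calb1, the calcium-binding protein calbindin, had 19.9, 20.5, 17.3 and 22.4 CPM in Dmrt5 KO, against 9.61, 7.26, 10.5 and 10.04 CPM in WT (log2 1.09 ± 0.22, adjusted p = 0.0177), and was not called without Dmrt5 KO replicates 1, 2 or 5 or WT replicate 1 (adjusted p up to 0.0731). Ptprn, the relative of Ptprn2 on dense-core vesicles, rose by 0.88 on the log2 scale (adjusted p = 0.0197) and was not called without Dmrt5 KO replicates 2 or 5 or WT replicate 3 (adjusted p up to 0.0882).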
